A study of Rattus norvegicus with 24 samples.

Results

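Transcript levels in rat kidney were compared between strain 13 and strain SS while both were kept on low salt (LS). SS is the Dahl salt-sensitive rat, and strain 13 is known as the SS rat whose chromosome 13 was replaced by that of the Brown Norway rat, so both share the SS background elsewhere. The comparison rests on 6 of the study's 24 two-colour cDNA arrays, chosen because their titles name LS RNA of strain 13 and of SS on the same array. The other arrays compared high salt (HS) with LS within each strain, and strain 13 with SS on HS, after 2 weeks per the titles. The labels use LS and HS unexplained, and both are taken here as the salt content of the diet. The titles of the 6 arrays open with text on LS against HS, but go on to name strain 13 and SS on LS in the dyes, and the latter was followed. The 6 arrays form 3 replicates, each made of a forward array, with strain 13 in the Cy5 dye, and a dye-swap array, with strain 13 in the Cy3 dye. The mean of both arrays, or the single value where only 1 array held one, gave 1 value per replicate and probe. A single value does not average out a difference between the dyes. Of 1561 probes with a value on any array of the study, 1380 had a value on an LS strain array, 1229 had one in at least 2 of the 3 replicates and were tested, and 1070 had one in all 3. All 6 arrays held a value for 656 of the tested probes. The tested probes named 1038 different genes. Whether the replicates came from separate animals or pools is not stated in the labels, and the p-values therefore reflect spread among samples that could be purely technical. No age is given in the sources used here. Sample labels name kidney as the tissue, whereas the title of the series speaks of renal medullary genes, and ratios between strains give no level against which either could be checked.

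The SS rat raises its blood pressure when fed salt, and the transfer of chromosome 13 from a salt-resistant strain is known to lessen that response, so a comparison on low salt shows differences between the strains before salt loading. The renal medulla holds thick ascending limbs, collecting ducts and straight blood vessels, and its outer part also holds the straight segment of the proximal tubule. Proximal tubule cells burn fatty acids in mitochondria and peroxisomes and carry many transporters, brush border enzymes and cytochromes P450, while the collecting duct sets the final sodium and water content of urine.

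Values are the deposited log ratios, whose base is not given in the sources used here, so no fold change is derived from them. A positive value means a higher level in strain 13. This direction is likely but not certain. It rests on the titles, which name strain 13 in Cy5 on the forward and in Cy3 on the dye-swap arrays, and on dye-swap values being deposited already turned, as the comparisons of the study fitted together best that way. A reversal of every sign in common cannot be seen in these values. Arrays held between 726 and 1190 values in this comparison, the lowest on the forward array of replicate 1. Values of the forward and dye-swap array of the same replicate were weakly related across probes (r = 0.14, -0.07 and 0.20 in replicates 1, 2 and 3), while forward arrays of different replicates correlated at 0.35 to 0.52 and dye-swap arrays at 0.30 to 0.47. The replicate means correlated at 0.35 to 0.44. These correlations describe probes that share arrays and dyes and are given with no p. Of 656 probes with a value on all 6 arrays, 38 were above 0 on all of them and 34 below 0 on all, while 56 (8.54%) had 3 forward values of the same sign and 3 dye-swap values of the opposite sign.

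The values also moved with the order of the probe IDs, which the labels do not explain. Along the IDs the probes fall into 4 stretches. The 309 tested probes of the third had a median of 0.09 and 72.2% above 0, where 55.3% of all tested probes were above 0 and 44.6% below, and the 319 of the second stretch had a median of -0.04. Of the 21 probes that were higher at an adjusted p below 0.1, 17 lay in the third stretch. For this reason values are also given, where a result turns on them, after every array was centred on a running median along the probe IDs, which is called position-centred here and was chosen after seeing the data. With position-centred values the forward and dye-swap arrays of the same replicate correlated at 0.11, 0.21 and 0.21 in replicates 1, 2 and 3. The plot of the values along the probe IDs shows the step and its removal.

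**Figure D1:**
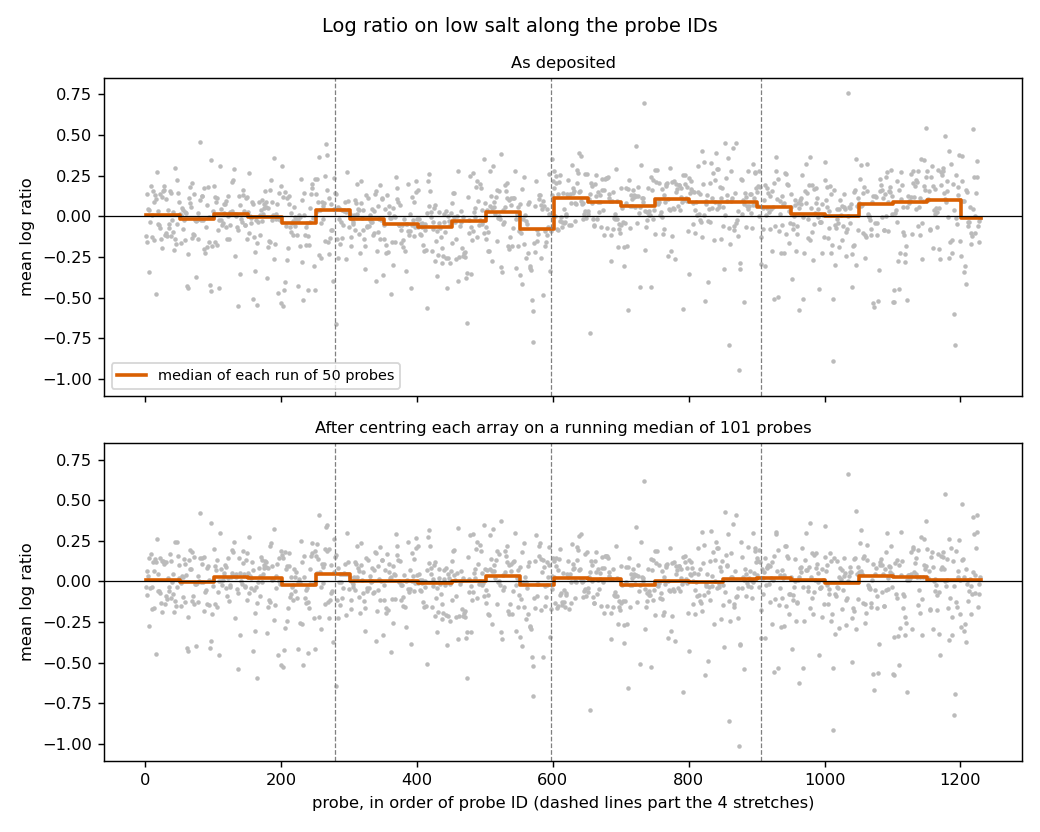
Mean log ratio on low salt, strain 13 over SS, of the 1229 tested probes in order of probe ID, with values as deposited in the upper panel and position-centred in the lower panel. Grey points are probes, the orange line is the median of each run of 50 probes, and the dashed lines part the 4 stretches of probe ID. The probes of the third stretch sit at a median of 0.09 as deposited.

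No probe passed an adjusted p of 0.05 (limma with Benjamini-Hochberg adjustment over 1229 probes), and the lowest adjusted p was 0.083. Without adjustment, 273 probes (22.2%) had a p below 0.05, 156 of them higher in strain 13 (12.7%) and 117 lower (9.52%). At an adjusted p below 0.1 there were 57 (4.64%), 21 higher (1.71%) and 36 lower (2.93%). The count at 0.05 depended on the processing: it was 26 with arrays scaled to equal spread, 44 among the 656 probes present on all 6 arrays, and 69 with single arrays fitted under a random block. In the random block fit the estimated correlation of the forward and dye-swap arrays of a replicate was -0.25. A negative correlation narrows the standard error of their mean, so the 69 is not on the same footing as the main count. The position-centred values also gave 0 at 0.05, with a lowest adjusted p of 0.0574, and turned the split of probes with an unadjusted p below 0.05 to 120 higher (9.76%) and 156 lower (12.7%). Of the 57 probes below an adjusted p of 0.1, 39 were also below it after centring, where the total was 61. None of the genes below is therefore called changed, and all values are given as mean ± SD of 3 replicates unless stated. The gene lists used here were written with earlier results of these data known, and each is read against the shares over all probes. At an unadjusted p below 0.05 those shares are 12.7% higher and 9.52% lower.

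**Figure D2:**
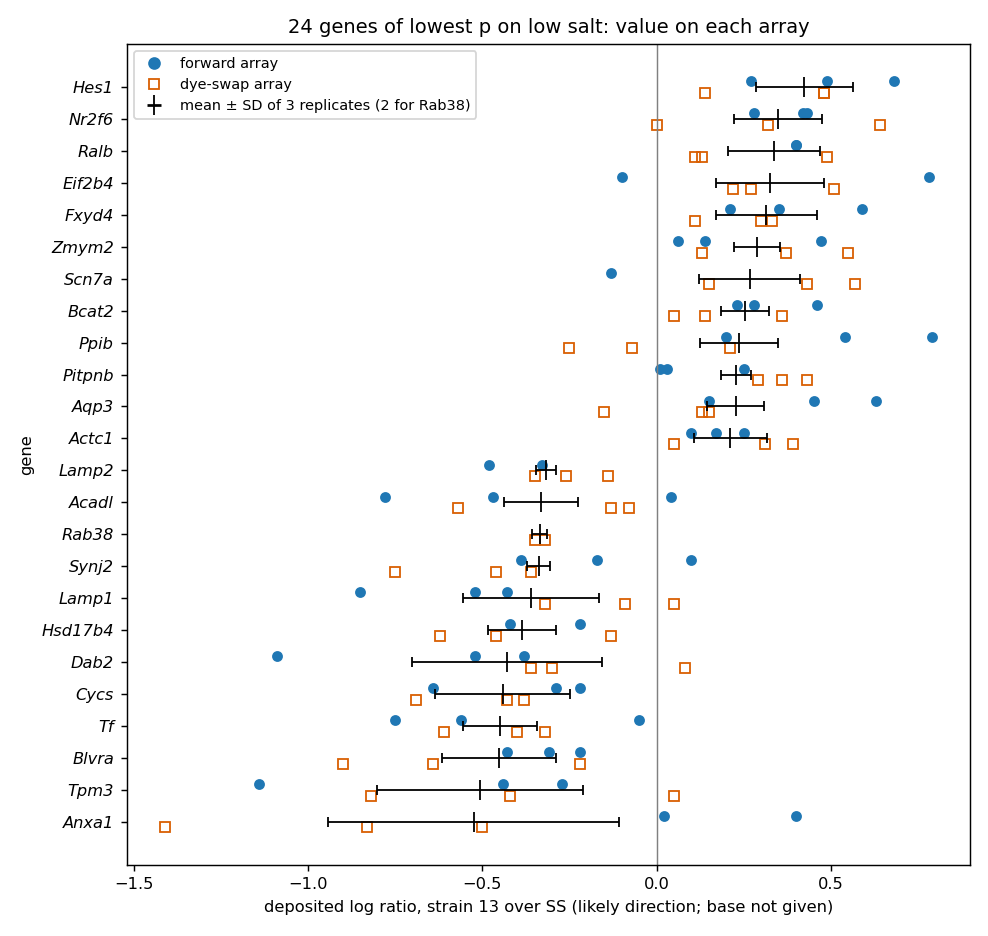
Value on each array of the 12 genes with the lowest p in each direction on low salt. Blue points are forward arrays, open orange squares dye-swap arrays, and black bars the mean ± SD of the replicates. The means of the lower genes lie from -0.53 to -0.32 and those of the higher genes from 0.21 to 0.42, and for Anxa1 the forward and dye-swap arrays lie on opposite sides of 0.

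Of 19 measured markers of the proximal tubule, 18 had means below 0, that is, toward lower levels in strain 13, none passing after adjustment, and Aqp1, a water channel also found outside this segment, had 0.07 ± 0.14. The median of the list was -0.30, against 0.03 over all probes tested, and 7 markers had an unadjusted p below 0.05 in the lower direction and 0 in the higher, where 9.52% and 12.7% of all probes did. Of the 17 markers with 3 replicate values, 12 were below 0 in all 3, against 17.6% of all such probes. After centring by position the median was -0.35 with 8 lower at an unadjusted p below 0.05. In bulk tissue, fewer cells of a type and less RNA per cell cannot be told apart.

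Gatm, which transfers the amidino group in creatine synthesis, had values of -0.98, -0.49 and -1.01 on the forward arrays and -0.55, -0.55 and -0.72 on the dye-swap arrays. Replicate 2 was nearest 0. All 6 arrays lay below 0, with a mean of -0.72 ± 0.18 (limma adjusted p = 0.0946). Cyp2e1, a cytochrome P450 that oxidises small molecules, had replicate values of -0.41, -0.46 and -0.65 and a mean of -0.51 ± 0.13, and was also below 0 on all 6 arrays. Gsta2, a glutathione transferase, had -0.67 ± 0.24, with replicates at -0.745, -0.395 and -0.855. The brush border peptidases Anpep and Dpp4, which cleave peptides in the tubule fluid, had -0.54 ± 0.39 and -0.44 ± 0.14. Dpp4 was below 0 on all 6 arrays. For Anpep the replicates differed widely, at -0.91, -0.13 and -0.565. Slc2a2, the glucose transporter of the basolateral membrane, had -0.30 ± 0.08 and lay below 0 on all 6 arrays, and Agxt2, a mitochondrial aminotransferase, had -0.44 ± 0.29. Markers nearer 0 were Lrp2 and Cubn, the endocytic receptors megalin and cubilin, at -0.20 and -0.05 (2 replicates for Cubn), and Khk, which phosphorylates fructose, at -0.02. The list as a whole was lowest in replicates 1 and 3, with medians of -0.34 and -0.47, and nearer 0 in replicate 2, with a median of -0.11. In replicate 2, 15 of 19 markers were below 0, against 17 of 18 in each of the others. Both dyes gave the same direction, with list medians of -0.20 on the forward arrays and -0.39 on the dye swaps.

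The other cell types covered by marker lists did not show such a run of low values. The 2 measured endothelial markers were Kdr, a receptor for vascular growth factor, at 0.10 ± 0.09, and Vcam1, an adhesion molecule, at 0.11 ± 0.24. Of 7 lymphoid and myeloid markers 2 were above and 5 below 0, with a median of -0.01 and 0 at an unadjusted p below 0.05. Lyz2, the lysozyme of macrophages, had the lowest value of these at -0.52 ± 0.46, with replicates as far apart as -0.07, -0.985 and -0.51. Thy1 had 0.28 in 2 replicates and Cd44, a hyaluronan receptor, -0.09. The haemoglobin genes Hbb and Hba-a1 had 0.04 and 0.02, and the fat marker Fabp4 -0.10. Lpl, the lipase of fat and muscle, had 0.12 and -0.24 in the 2 replicates that held it. Of 5 muscle markers, Actc1, cardiac actin, had 0.21 ± 0.11 with all 6 arrays above 0, Tagln 0.12, Tnnt2 0.01, Acta2 -0.02 and Tpm1 -0.21. After centring by position Actc1 had 0.11.

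**Figure D3:**
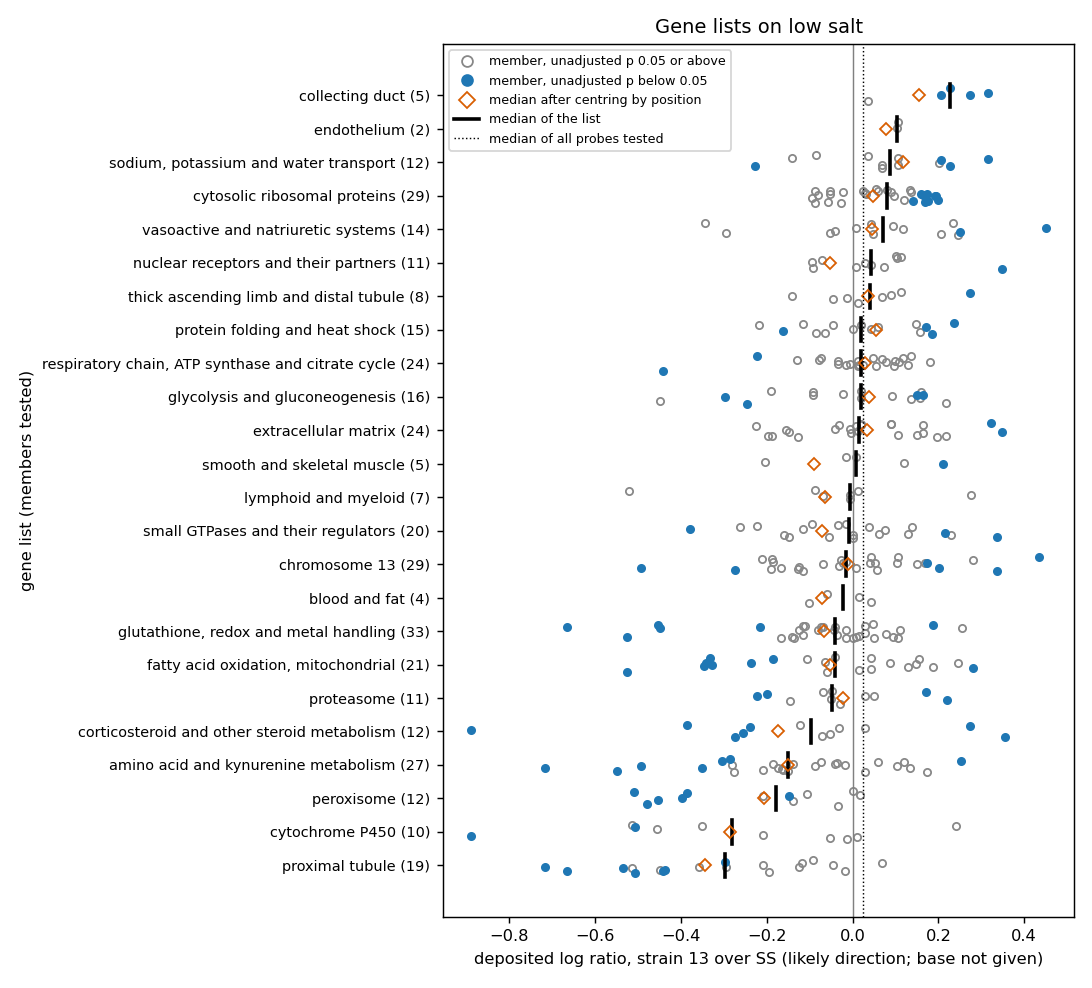
Mean log ratio on low salt of the members of each gene list, strain 13 over SS, with lists ordered by their median. Filled points had an unadjusted p below 0.05, black bars are list medians, orange diamonds the medians after centring by position, and the dotted line the median of all probes tested (0.03). The proximal tubule list has the lowest median, -0.30, and the collecting duct list the highest, 0.23.

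Cytochromes P450 had a similar low median. Of 10 measured genes of this list 8 were below 0 (median -0.28), and 2 had an unadjusted p below 0.05, both lower. Cyp2c23, the main arachidonic acid epoxygenase of rat kidney, whose products relax vessels and promote sodium excretion, gave forward values of -1.2, -0.47 and -1.1 and dye-swap values of -0.47, -0.96 and -1.13. It was below 0 on all 6 arrays, with a mean of -0.89 ± 0.21 (limma adjusted p = 0.083) and -0.92 after centring. No replicate was nearer 0 than -0.715. Cyp2d4 and Cyp2d2, relatives within a family whose probes may cross-hybridise, had -0.52 ± 0.36 and -0.46 ± 0.41, and Cyp4f1, which hydroxylates fatty acids, -0.35. Cyp7a1, of bile acid synthesis, was on the other side at 0.24 in 2 replicates. Cyp2e1, Cyp2d4 and Cyp4b1 stand in the proximal tubule list as well.

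Enzymes of amino acid and kynurenine metabolism followed, with 20 of 27 below 0 and a median of -0.15. In the lower direction 6 had an unadjusted p below 0.05, and in the higher direction 1. Aadat, which transaminates kynurenine and aminoadipate, had replicates of -0.78, -0.185 and -0.685 and a mean of -0.55 ± 0.32. Hibadh, of valine breakdown, had -0.31 ± 0.21, Oat, ornithine aminotransferase, -0.35 ± 0.25, and Cdo1, which starts the oxidation of cysteine, -0.29 ± 0.22. Against this run, Bcat2, the mitochondrial transaminase of branched-chain amino acids, had forward values of 0.46, 0.28 and 0.23 and dye-swap values of 0.05, 0.36 and 0.14. All 6 were above 0, with a mean of 0.25 ± 0.07 (limma adjusted p = 0.083) and 0.18 after centring. Gatm is the 1 gene that this list shares with the proximal tubule list. The proximal tubule markers were lower on the same arrays, and their part in the values of these enzymes was not tested.

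Peroxisomes shorten very long and branched fatty acids and break down hydrogen peroxide, and most of their genes had means below 0. Of 12 measured genes 10 were below 0 (median -0.18) and 6 had an unadjusted p below 0.05, all lower. Hsd17b4, the multifunctional enzyme of peroxisomal oxidation, had the lowest p of all named genes. It gave -0.22 and -0.42 on the forward arrays of replicates 2 and 3 and -0.46, -0.62 and -0.13 on the dye swaps, with no value on the sparse forward array. All 5 values were below 0, with a mean of -0.39 ± 0.10 (limma adjusted p = 0.083) and -0.42 after centring. Slc27a2, which imports and activates very long fatty acids, had -0.51 ± 0.27, Hao2, a hydroxy acid oxidase, -0.45 ± 0.28, and Amacr, a racemase for branched fatty acids, -0.40 ± 0.12. Crot, a carnitine acyltransferase, had -0.48 in 2 replicates, each from a single array, and the transporter Abcd3 -0.15 ± 0.14. The members near 0 included Cat, catalase, at 0.00 with forward and dye-swap means of 0.35 and -0.34, and Pex6, which helps import matrix proteins, at 0.02 with replicates of 0.49, -0.52 and 0.085. None of the 12 is in the proximal tubule list, but this does not show that they are expressed outside that segment. The proximal tubule markers were lower on the same arrays, and their part in the peroxisome values was not tested.

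The 250 bases before the RefSeq start of each tested gene were searched for AGGTCA, the half-site of many nuclear receptors, on both strands. Among 10 peroxisome genes matched in the RefSeq promoter table of assembly GRCr8, 4 held it (Amacr, Cat, Hsd17b4 and Slc27a2), or 40.0%, against 10.5% of 851 matched tested genes and 14.1% of all 33469 promoters. Of the 19 proximal tubule markers, all matched, 5 held it (26.3%). Of the genes lower at an adjusted p below 0.1, 4 of 24 matched held it (16.7%), and Cat, a holder, was itself at 0.00. These counts describe letters in a window and were not tested. The assembly was made from a Brown Norway rat. The window of Hsd17b4, chr18:45515177-45515426 on the plus strand, is shown because this gene had the lowest p of the named genes. Its capitals mark the match, which begins 56 bases before the start.
Hsd17b4: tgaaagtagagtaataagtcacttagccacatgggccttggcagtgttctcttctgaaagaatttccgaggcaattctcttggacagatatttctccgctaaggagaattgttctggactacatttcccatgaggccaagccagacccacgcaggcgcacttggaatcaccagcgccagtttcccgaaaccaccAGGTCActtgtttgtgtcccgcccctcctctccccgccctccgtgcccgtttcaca

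Mitochondrial fatty acid oxidation was split. Of 21 measured genes 10 were above and 11 below 0 (median -0.04), yet 7 had an unadjusted p below 0.05 in the lower direction and 1 in the higher. Acadl, the long-chain acyl-CoA dehydrogenase, had forward values of -0.78, 0.04 and -0.47 and dye-swap values of -0.13, -0.57 and -0.08, so 5 of 6 arrays were below 0. Its mean was -0.33 ± 0.11 (limma adjusted p = 0.083) and -0.38 after centring. Decr1, needed for unsaturated fatty acids, was below 0 on all 6 arrays at -0.33 ± 0.04 (limma adjusted p = 0.0843). Etfa, which passes electrons from these dehydrogenases to the respiratory chain, had -0.34 ± 0.24 and Eci1, an enoyl-CoA isomerase, -0.35 ± 0.30, both with their lowest value in replicate 1. Hadha, a subunit of the trifunctional protein, had -0.53 ± 0.53 from 2 replicates, at -0.9 and -0.15. Cpt1a, the carnitine acyltransferase that admits fatty acids to mitochondria, had -0.19 ± 0.12 and Acadm, the medium-chain dehydrogenase, -0.24 ± 0.19. Acads, the short-chain dehydrogenase, was the member higher at an unadjusted p below 0.05, at 0.28 ± 0.22 and 0.13 after centring. The activating enzymes Acsl1, Acsl3 and Acsl5 had 0.04, 0.25 and 0.13.

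Genes of the respiratory chain, ATP synthase and citrate cycle did not share these low values. Of 24 measured, 15 were above 0 (median 0.02), and 2 had an unadjusted p below 0.05. Both were lower. Cycs, cytochrome c, the electron carrier between the third and the fourth complex, had forward values of -0.64, -0.22 and -0.29 and dye-swap values of -0.69, -0.43 and -0.38. All 6 arrays lay below 0, with a mean of -0.44 ± 0.19 (limma adjusted p = 0.083). Idh3g, a subunit of isocitrate dehydrogenase, had -0.22 ± 0.10. The 7 measured subunits of cytochrome oxidase lay between -0.01 (Cox7a2) and 0.14 (Cox5b), and Atp5f1c, of ATP synthase, had 0.13 with forward and dye-swap means of 0.39 and -0.13. The whole list had a median of 0.14 on the forward arrays and -0.11 on the dye swaps. In glycolysis and gluconeogenesis, 9 of 16 were above 0 (median 0.02). Aldoa, aldolase, had 0.17 ± 0.10 with all 6 arrays above 0, Eno1, enolase, 0.15 ± 0.08, and Slc16a7, a monocarboxylate transporter, -0.25 ± 0.20. After centring Eno1 had 0.075.

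Among 33 genes of glutathione, redox and metal handling, 20 were below 0 (median -0.04) and 5 had an unadjusted p below 0.05 in the lower direction, with 1 in the higher. Blvra, biliverdin reductase, which makes the antioxidant bilirubin, gave -0.22, -0.31 and -0.43 on forward and -0.9, -0.22 and -0.64 on dye-swap arrays. Every array was below 0, and the mean was -0.45 ± 0.16 (limma adjusted p = 0.083). Tf, transferrin, the iron carrier of plasma, had -0.45 ± 0.11 and was below 0 on all 6 arrays, from -0.75 to -0.05. Gclm, the modifier subunit of the enzyme that limits glutathione synthesis, had -0.53 ± 0.30 on 4 arrays, with 0.01 on the forward array that held it and a mean of -0.65 on the dye swaps. Sod2, mitochondrial superoxide dismutase, had -0.22 ± 0.11, and Sod3, its secreted relative, 0.19 ± 0.20. The cytosolic form Sod1 had -0.07, with forward and dye-swap means of 0.15 and -0.30.

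A further 7 genes were named for their low p in the lower direction and belong to none of the lists. Dab2, an adaptor that takes megalin into the cell, had forward values of -1.09, -0.38 and -0.52 and dye-swap values of -0.3, 0.08 and -0.36. Its mean was -0.43 ± 0.27, and 5 of 6 arrays were below 0, the lowest being the sparse forward array of replicate 1. Lamp1 and Lamp2, glycoproteins of the lysosomal membrane, had -0.36 ± 0.20 and -0.32 ± 0.03. For Lamp1 the forward arrays gave -0.85, -0.43 and -0.52 and the dye swaps -0.32, -0.09 and 0.05, so the forward values were lower. Synj2, a phosphoinositide phosphatase, had -0.34 ± 0.03, and Rab38, a GTPase of lysosome-related organelles, -0.34 ± 0.02 from 2 replicates with a dye-swap array each. Tpm3, a tropomyosin, had -0.51 ± 0.29, with 5 of 6 arrays below 0. Anxa1, a phospholipid-binding protein, had -0.53 ± 0.42, but its forward arrays gave 0.02 and 0.4 and its dye swaps -0.83, -1.41 and -0.5, and with forward arrays alone its value was 0.21. All 7 had limma adjusted p-values of 0.083. In a list of 20 small GTPases and their regulators, which does not hold Rab38, 10 were above and 10 below 0 (median -0.01), with Arf4, of Golgi traffic, at 0.22 ± 0.02 and Rab10 at -0.38 in 2 replicates. After centring by position Arf4 had 0.12.

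Of the collecting duct genes, all 5 measured had means above 0 (median 0.23) and 4 had an unadjusted p below 0.05, none passing after adjustment. Over all probes 55.3% were above 0 and 12.7% were higher at that p. Fxyd4 lies in the third stretch of probe ID, where 26.2% of probes were higher at that p. Aqp3, Hsd11b2 and Scnn1a lie in the fourth, where 14.2% were. All 5 were above 0 in replicates 1 and 2, and 3 of them in replicate 3. Fxyd4, a regulator of the sodium pump in this segment, had forward values of 0.21, 0.35 and 0.59 and dye-swap values of 0.11, 0.33 and 0.3. All 6 arrays were above 0, with a mean of 0.32 ± 0.14 (limma adjusted p = 0.083). Aqp3, the water channel of the basolateral membrane, had forward values of 0.15, 0.63 and 0.45 and dye-swap values of 0.13, -0.15 and 0.15, so the forward arrays carried most of its mean of 0.23 ± 0.08 (limma adjusted p = 0.0843). Hsd11b2, which inactivates glucocorticoid and so keeps the mineralocorticoid receptor for aldosterone, had 0.27 ± 0.16 with all 6 arrays above 0. Scnn1a, which encodes the alpha chain of the aldosterone-regulated sodium channel, had replicates of 0.51, 0.11 and 0 and a mean of 0.21 ± 0.27. Slc4a1, the anion exchanger of acid-secreting cells and of red cells, had 0.04 ± 0.32, and its sign turned when arrays were scaled to equal spread (-0.0144) or forward arrays alone were used (-0.23). After centring by position the 5 stayed above 0, but the median was 0.16 and 1 of them, Fxyd4 at 0.23, kept an unadjusted p below 0.05, while Aqp3 had 0.15 (limma unadjusted p = 0.0706) and Hsd11b2 0.16 (limma unadjusted p = 0.116).

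The thick ascending limb and distal tubule did not stand on either side. Of 8 markers 5 were above 0 (median 0.04). Umod, the urinary glycoprotein uromodulin, had 0.11 ± 0.15, with forward and dye-swap means of 0.36 and -0.14. Slc12a1, the sodium-potassium-chloride cotransporter targeted by loop diuretics, had -0.14 ± 0.23, Egf 0.01 and Pvalb, a calcium-binding protein, 0.09. In the list of sodium, potassium and water transport, 9 of 12 were above 0 (median 0.09, and 0.12 after centring), with 3 higher and 1 lower at an unadjusted p below 0.05. The lower gene was Slc12a2, the widely expressed relative of Slc12a1, at replicates of -0.23, -0.25 and -0.2 and a mean of -0.23 ± 0.03. Atp1b1, the beta subunit of the sodium pump, encoded on chromosome 13, had replicates of 0.125, 0.08 and 0.115, and Fxyd2, a pump modulator, 0.07. Outside this list, Scn7a, a relative of the voltage-gated sodium channels, had 0.27 ± 0.15 (limma adjusted p = 0.0878), with values of 0.43, 0.57 and 0.15 on the dye swaps and -0.13 on the forward array that held it.

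The pair of enzymes that convert glucocorticoid lay on opposite sides of 0, and both values differed between the dye orientations. Hsd11b1, encoded on chromosome 13, regenerates active hormone. Its replicate values were -0.345, -0.285 and -0.19, with a mean of -0.27 ± 0.08 (limma adjusted p = 0.11), or -0.36 after centring. Yet the forward arrays gave 0.39, -0.03 and 0.12 and the dye swaps -1.08, -0.54 and -0.5, so the low value came from the dye-swap arrays, and the forward mean was 0.16. Hsd11b2 was above 0 in both orientations, at 0.40 and 0.15. Across 12 genes of corticosteroid and other steroid metabolism, 9 were below 0 (median -0.10, and -0.17 after centring), with 5 lower and 2 higher at an unadjusted p below 0.05. The 5 lower were Hsd11b1, Pgrmc1, Sgk1 and, also held by other lists, Hsd17b4 and Cyp2c23, which act mainly on fatty acids. Pgrmc1, a membrane haem protein that binds steroids, had -0.24 ± 0.11 and was below 0 on all 6 arrays. The receptors of glucocorticoid and mineralocorticoid, Nr3c1 and Nr3c2, had 0.03 and -0.07, and Sgk1, a kinase induced by both hormones, had replicates of -0.585, -0.32 and 0.14. Star, which carries cholesterol into mitochondria, had 0.36 from 2 replicates as deposited and 0.04 after centring.

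**Figure D4:**
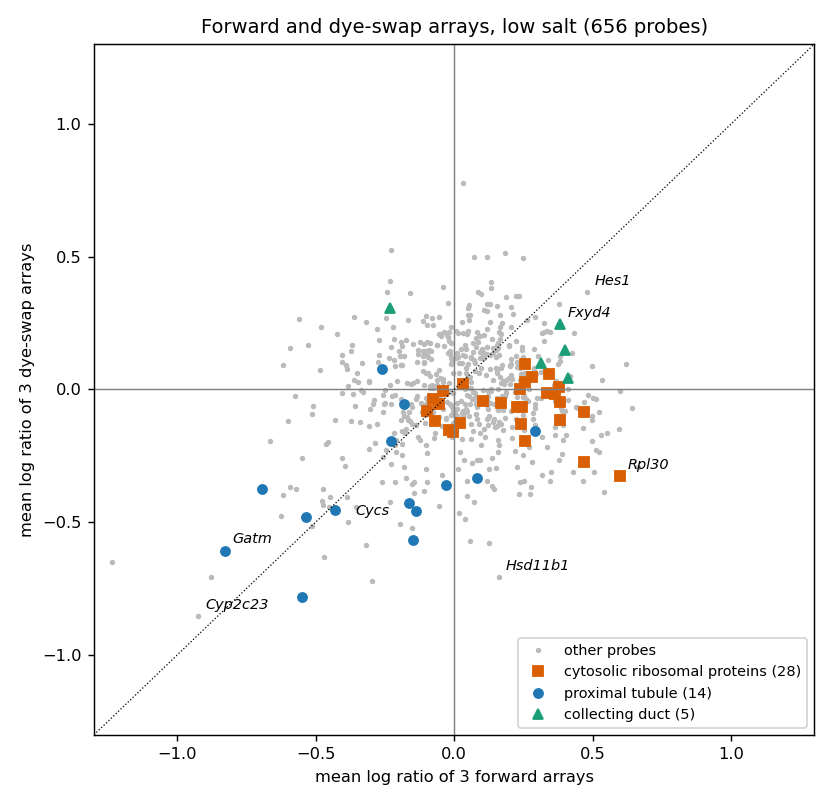
Mean log ratio of the 3 forward arrays against that of the 3 dye-swap arrays for the 656 probes with a value on all 6 arrays of the low salt comparison, with 3 gene lists in colour. The dotted line marks equal values. Cyp2c23, Gatm and Cycs lie low in both orientations, Hsd11b1 is low in the dye swaps alone, and most ribosomal protein genes lie above 0 on the forward arrays with dye-swap means around it.

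Among ribosomal protein genes the dye orientation moved a whole list. Of 29 measured, 20 were above 0 (median 0.08) and 9 had an unadjusted p below 0.05, all higher. On the forward arrays the list had a median of 0.24 and on the dye swaps -0.05. After centring by position 3 were higher and 1 was lower at an unadjusted p below 0.05, with a median of 0.05. Rpl37l1 had 0.20 ± 0.02, Rpl27l1 0.17 ± 0.05 and Rpl41 0.19 ± 0.09, and the dye-swap means of Rpl27l1 and Rpl41 were below 0 at -0.05 and -0.08. Many processed copies of ribosomal protein genes lie in the genome, so these probes may not tell them apart.

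Among the genes with the lowest p in the higher direction, Hes1, a repressor driven by Notch signals, had forward values of 0.49, 0.68 and 0.27 and dye-swap values of 0.14, 0.48 and 0.48. All 6 were above 0, with a mean of 0.42 ± 0.14 (limma adjusted p = 0.0878) and 0.35 after centring. Nr2f6, an orphan nuclear receptor, had forward values of 0.28, 0.42 and 0.43 and dye-swap values of 0.64, 0 and 0.32, with a mean of 0.35 ± 0.13 (limma adjusted p = 0.083). No array gave it a value below 0. Of 11 nuclear receptors and partners, 8 were above 0 (median 0.04, and -0.05 after centring), and Nr2f6 alone had an unadjusted p below 0.05. Thra, a thyroid hormone receptor, had 0.10 with forward and dye-swap means of -0.16 and 0.36, and Rxra, the shared partner of many receptors, 0.07. The zinc finger gene Zmym2 had 0.29 ± 0.07, Eif2b4, a subunit of an exchange factor for translation initiation, 0.33 ± 0.16, and Pitpnb, which moves phosphatidylinositol between membranes, 0.23 ± 0.04. Of these, Zmym2 and Pitpnb were above 0 on all 6 arrays. These genes lie in the third stretch of probe ID, and after centring Zmym2 had 0.185, Eif2b4 0.295 and Pitpnb 0.15.

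In the vasoactive and natriuretic systems, 10 of 14 genes were above 0 (median 0.07) and 2 had an unadjusted p below 0.05, both higher. Over all probes 12.7% were higher at that p. After centring by position 7 of the list were above and 7 below 0, with 1 higher at that p. Adora2b, an adenosine receptor, had replicates of 0.56, 0.44 and 0.35 and a mean of 0.45 ± 0.11. Adm, the vasodilator adrenomedullin, had 0.25 from 2 dye-swap arrays. Calca, which encodes calcitonin and a vasodilator peptide, had 0.23 ± 0.27, and its forward array of replicate 1 read 1.16. Ptgds, a prostaglandin synthase, lay lower at -0.34 ± 0.05 on 4 arrays. Agt, angiotensinogen, had replicates of 0.165, 0.305 and -0.34 and so no common direction.

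The extracellular matrix list was centred on 0 on low salt. Of 24 measured, 14 were above 0 (median 0.02), and 2 had an unadjusted p below 0.05. They were higher, where 12.7% of all probes were higher at that p. Bgn, the proteoglycan biglycan, had forward values of 0.57, 0.32 and 0.41 and dye-swap values of 0.37, 0.06 and 0.21, all above 0, with a mean of 0.32 ± 0.14. Plat, the tissue plasminogen activator, had replicates of 0.21, 0.145 and 0.69 and a mean of 0.35 ± 0.30. The growth factor Pdgfa had 0.15 ± 0.13, and 0.05 after centring. The collagen genes Col1a1, Col3a1 and Col2a1 had 0.17 ± 0.30, 0.09 ± 0.10 and 0.11 ± 0.18, within their spread of 0.

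Genes of protein folding had 9 of 15 above 0 (median 0.02), with 3 higher and 1 lower at an unadjusted p below 0.05. Ppib, a prolyl isomerase of the endoplasmic reticulum, had 0.24 ± 0.11 (limma adjusted p = 0.0843), with a forward mean of 0.51 and a dye-swap mean of -0.04. After centring Ppib had 0.16. P4hb and Pdia6, disulfide isomerases, had 0.17 ± 0.01 and 0.19 ± 0.04. P4hb was above 0 on all 6 arrays, and its value after centring was 0.08. Of 11 proteasome genes 4 were above 0 (median -0.05), with Psmb4 at 0.17 ± 0.02 and the core subunits Psma1 and Psma4 at -0.22 ± 0.21 and -0.20 ± 0.15. After centring Psmb4 had 0.07 (limma unadjusted p = 0.198).

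The genes of chromosome 13, the chromosome by which the strains differ, lay on both sides of 0. Of 37 with a value in the study, 29 were tested, with 14 above and 15 below 0 and a median of -0.02. The 1006 probes placed on other chromosomes had 567 above and 438 below 0 and a median of 0.03. On chromosome 13, 4 of 29 were higher and 2 lower at an unadjusted p below 0.05, against 128 and 96 of 1006 elsewhere. A sequence difference under a probe can also alter a signal for these genes, and no probe sequence was used here.

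Ralb, a small GTPase of exocytosis and cell survival, had the lowest p of the chromosome. Its forward values were 0.4 and 0.4 and its dye-swap values 0.49, 0.11 and 0.13, with none on the sparse forward array. All 5 were above 0, with a mean of 0.34 ± 0.13 (limma adjusted p = 0.083) and 0.34 after centring. Ctse, the aspartic protease cathepsin E, had 0.12, 0.71 and 0.47 on the 3 dye swaps and no forward value, so its mean of 0.43 ± 0.30 rests on a single dye orientation. Tor1aip1, a protein of the inner nuclear membrane, had 0.17 ± 0.09 with forward and dye-swap means of -0.04 and 0.39, and Mtarc2, a mitochondrial reductase, 0.20 ± 0.14 with all 6 arrays above 0. After centring Tor1aip1 had 0.09 and Mtarc2 0.11 (limma unadjusted p = 0.0973 and 0.121). In the lower direction, Kmo, kynurenine monooxygenase, a step of tryptophan breakdown, had replicates of -0.33, -0.43 and -0.72. All 5 of its arrays were below 0, with a mean of -0.49 ± 0.20. Cr1l, a complement regulator, had replicates of -0.37, -0.305 and 0.105. Members nearer 0 included Glul, glutamine synthetase, at 0.10, Dbi at 0.04, Parp1 at -0.03 and Ephx1, an epoxide hydrolase, at -0.02.

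Promoter windows are shown for Kmo and Blvra because, among 851 matched tested genes, 6 (0.705%) held CAAAGTCCA, the core of a site bound by the proximal tubule and liver factor HNF4A, on either strand, against 0.338% of all promoters. The other holders were Pdzk1, a scaffold of brush border transporters, at -0.52 ± 0.47, Agxt2 at -0.44 ± 0.29, Abcd3 at -0.15 ± 0.14 and Ptpmt1, a mitochondrial phosphatase, on the other side at 0.29 ± 0.39. Among the genes lower at an adjusted p below 0.1, 1 of 24 matched held it (Blvra). The capitals mark the match, which lies on the minus strand of each and so reads as its reverse complement. The window of Kmo is chr13:90089271-90089520 and that of Blvra chr3:134802660-134802909, both on the plus strand of GRCr8, and the matches begin 74 and 130 bases before the start. The other motifs searched in the same windows were GGGCGG, held by 60.5% of matched tested genes, and TATAAA, held by 8.93%. Their shares were 36.8% and 21.1% among proximal tubule markers and 70.0% and 10.0% among peroxisome genes. Among the genes lower at an adjusted p below 0.1 they were 29.2% and 8.33%. These shares were not tested. Whether any factor binds at the motifs was not measured.
Kmo: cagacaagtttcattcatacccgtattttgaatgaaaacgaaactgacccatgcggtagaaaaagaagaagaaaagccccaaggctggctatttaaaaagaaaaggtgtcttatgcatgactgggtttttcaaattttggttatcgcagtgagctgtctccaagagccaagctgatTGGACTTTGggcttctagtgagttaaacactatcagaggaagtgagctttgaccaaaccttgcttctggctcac
Blvra: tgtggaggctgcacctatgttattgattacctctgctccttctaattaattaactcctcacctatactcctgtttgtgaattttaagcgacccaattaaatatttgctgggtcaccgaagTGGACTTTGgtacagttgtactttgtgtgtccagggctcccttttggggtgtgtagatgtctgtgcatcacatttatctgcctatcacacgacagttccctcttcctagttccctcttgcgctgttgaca

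The strain ratio on low salt resembled that on high salt, measured on other arrays. Across 1203 probes with at least 2 replicates on each diet, the means correlated at r = 0.57, given as a description because probes share the array design. Over probes present on all arrays compared, the LS strain ratio also correlated with the diet ratios, at 0.44 in strain 13 (618 probes) and 0.37 in SS (572). Those ratios do not compare strains. The difference between the dye orientations correlated at 0.58 between LS and HS (641 probes). How much of the r of 0.57 rests on strain was not tested. Of the 36 probes lower at an adjusted p below 0.1 on LS, 34 were below 0 on HS, or 94.4%, against 65.7% of all probes that were below 0 on LS. Of the 21 higher, 20 were above 0 on HS, or 95.2%, against 70.9%. The probes so picked lay farther from 0 on LS, with medians of -0.41 and 0.26 against -0.12 and 0.12. The fit that picked them also used the spread of the HS replicates, so these shares are no test of agreement between diets. The HS values showed the same step along the probe IDs, with a median of 0.11 in the third stretch and -0.06 in the second. Within the third stretch, where 17 of the 21 lay, 88.8% of all probes above 0 on LS were also above 0 on HS. With position-centred values, 18 of the 21 were above 0 and 35 of the 36 below 0 on both diets, against a same-sign share of 64.4% and 64.6% of all probes above and below 0 on LS. The difference between the diets was tested for each probe, and 0 of 1203 passed an adjusted p of 0.05 (limma, lowest adjusted p = 0.247), while 115 (9.56%) had an unadjusted p below 0.05.

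Cyp2c23 had -1.19 ± 0.63 on HS, with replicates of -1.845, -0.58 and -1.13, and Gatm -1.03 ± 0.55, both with a mean farther from 0 than on LS. The difference of LS minus HS was 0.30 with a standard error of 0.31 for Cyp2c23 (limma unadjusted p = 0.358) and 0.31 with 0.28 for Gatm (limma unadjusted p = 0.3). On HS the median of the proximal tubule markers was -0.39, with 16 of 18 below 0, and replicate medians from -0.78 to -0.03. The collecting duct list had a median of 0.35, with 5 of 5 above 0. Kmo had -0.74 ± 0.48, Ralb 0.30 ± 0.07 and Hsd11b1 -0.20 ± 0.14 on HS. The peroxisome list had a median of -0.12 and the mitochondrial fatty acid list 0.03 on HS. Acadl, Cycs and Etfa, at -0.33, -0.44 and -0.34 on LS, had -0.11, -0.16 and 0.02 on HS, with unadjusted p-values of the difference of 0.053, 0.0697 and 0.0533.

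The named genes with the lowest p for the difference between diets were picked after seeing it, and none passed after adjustment. Slc16a7 had -0.25 on LS and 0.35 on HS, a difference of -0.60 with a standard error of 0.14 (limma unadjusted p = 0.00112). Tnnt2, cardiac troponin T, encoded on chromosome 13, had replicates of 0.04, -0.02 and 0.005 on LS and -0.52, -0.44 and -0.485 on HS (limma unadjusted p = 0.00167). Scn7a had 0.27 ± 0.15 on LS and -0.08 ± 0.05 on HS (limma unadjusted p = 0.00528). Tagln, of smooth muscle, had 0.12 ± 0.02 on LS and -0.42 ± 0.24 on HS. The median of the 5 muscle markers was 0.01 on LS and -0.27 on HS. Bcat2 was above 0 on both diets and higher on HS, at 0.52 against 0.25. The titles of the strain arrays carry codes of unstated meaning. The code that stands before the dye names was shared by all LS and HS arrays of replicate 3 and by none across the diets in replicates 1 and 2, so there diet and this code cannot be told apart. Another code in the titles varied within both diets. Within replicate 3 the difference of LS and HS was -0.43 for Slc16a7, 0.49 for Tnnt2, 0.24 for Scn7a, 0.53 for Tagln and -0.23 for Bcat2.

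**Figure D5:**
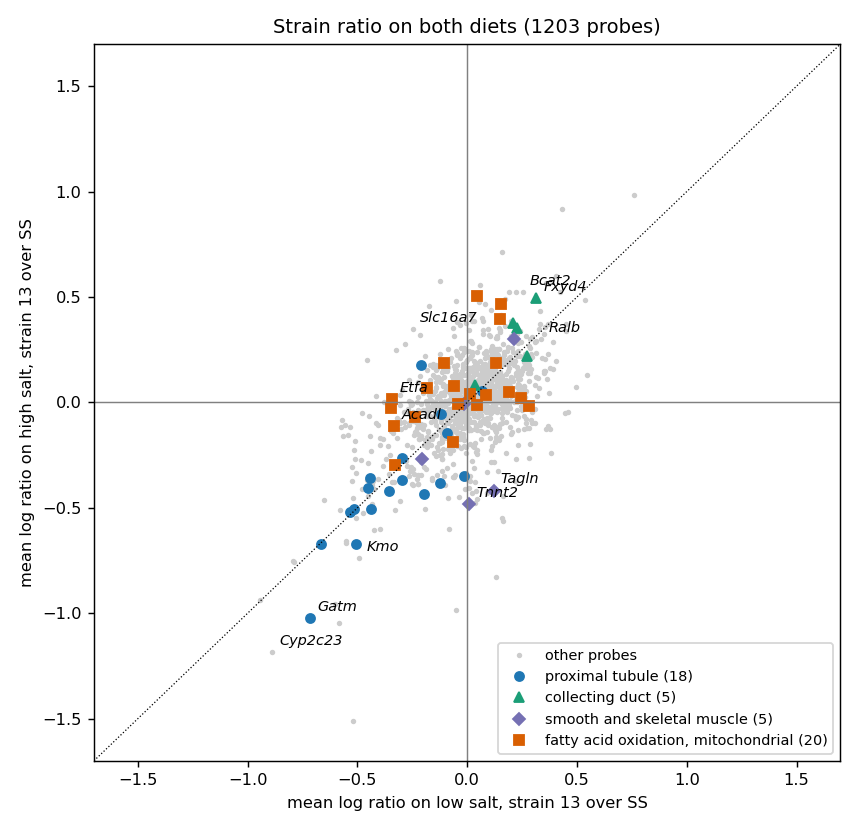
Mean log ratio of strain 13 over SS on low salt and on high salt for 1203 probes, with 4 gene lists in colour. The dotted line marks equal values. Proximal tubule markers lie low and collecting duct genes high on both diets, while Tnnt2 and Tagln lie at 0.01 and 0.12 on low salt and at -0.48 and -0.42 on high salt.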

How the data were processed

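Each array carried kidney RNA of both strains, per the labels. The authors deposited 1 log ratio per probe and array. Its base (the design had assumed log2), the correction of background and the normalization are not stated in the labels or in the file, so ratios were taken as they stand. The 6 arrays had means within 0.0038 of 0. Forward and dye-swap values were taken as turned to the same order already: over 548 probes, the difference of the diet ratios (strain 13 less SS) correlated with the difference of the strain ratios (HS less LS) at 0.77 for the mean of the orientations and at 0.22 for their difference.

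Gene names came from the platform's annotation table, with symbols brought up to date through RefSeq gene identifiers (assembly GRCr8), a table that served for names and chromosomes. Of 1229 tested probes, 1036 had 1 updated symbol, 3 a platform symbol, 18 several and 172 none. Promoter sequences are those of RefSeq (GRCr8).

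The arrays of a replicate were averaged, or the single value was taken where only 1 array held one. limma 3.58.1 in R 4.3.3 (lmFit, eBayes) fitted 4 group means to the 12 replicate values of the 4 comparisons, and the LS strain mean was tested against 0 (two-sided) with Benjamini-Hochberg adjustment at 0.05. LS minus HS was a contrast in the same fit. The test was run on simulated data first. Position-centring subtracted from each value the median of its probe and the 50 probes on either side. Named genes are the 12 with the lowest p in each direction, the 3 lowest of each list, all tested members of lists of 6 or fewer, and the 3 lowest in each direction on chromosome 13. Further list members are examples chosen with their values in view. Members and lists were chosen with earlier results of these data known. Titles that name the RNA show that at least 1 RNA label (SS on LS, replicate 3) recurs in the SS diet comparison, so comparisons may share RNA. The deviations of same-numbered replicates correlated at -0.30 to 0.41, with 0.41 for that replicate. A shared RNA can give either sign, depending on its side in each ratio, so these values do not decide whether RNA was shared. Numbers were not used as pairs in the main fit. Alternatives covered the samples fitted, blocks, scaling, filters, dye orientation, single replicates and position. The number of arrays limits the precision.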

Additional observations from a re-analysis of the deposited data

Results flagged for a closer look

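The 6 arrays and 60 named genes with a value on each were examined for a single array far from the other 5, a gap that chance alone gives in about 1 of 20 groups, and 3 such values were found. The forward array of replicate 1 held 726 values, against 1099 to 1190 on the others. Its values also had the widest spread, with an SD of 0.474 against 0.257 to 0.318. For Calca, the same array read 1.16, while the other 5 lay between -0.17 and 0.32.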

How the results depend on the processing

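Over 22 alternatives, 6 of them added after seeing the data, the count of 0 probes at an adjusted p of 0.05 remained 0 in the fits of the LS replicates alone (220 with an unadjusted p below 0.05), of the 6 strain pairs (260) and with the replicate block (265). It also remained 0 with median-centred arrays (121 higher and 142 lower without adjustment), with 1 replicate sufficing, with a trend and robust variance, without the forward array of replicate 1 and under each form of position-centring alone. It was 26 with arrays scaled to equal spread (9 higher, 17 lower), 44 for probes on all 6 arrays, 69 with 24 arrays and a random block (27 higher, 42 lower), 69 with forward arrays alone (49 higher, 20 lower), 51 with dye swaps alone (17 higher, 34 lower) and 57 at an adjusted p of 0.1. It was 29 with both orientations required, where LS minus HS gave 1, and 3 (without that forward array) or 36 (with equal spread) after position-centring. Without 1 replicate it ranged from 0 to 1, the 1 being Anxa1 without replicate 3. Fits of a single orientation do not average out differences between the dyes. Cyp2c23 passed in both of these fits with the same sign. Gjb1 and Gpx1 passed in both with opposite signs, at -0.585 and 0.54 on forward arrays and 0.48 and -0.39 on dye swaps. The cause of the moves in the count was not tested. Of 81 named genes, 60 had a value in all 22 alternatives, and 43 of these kept their sign. Of the 21 with a value in some alternatives only, 19 kept it where they were run, which says nothing of the rest: Scn7a and Thy1 had single forward values of -0.13 and -0.08 against means above 0. The remaining 19 took the opposite sign as follows. With forward arrays alone the values were Anxa1 0.21, Hsd11b1 0.16, Tor1aip1 -0.04, Thra -0.16, Cd44 0.0933, Slc4a1 -0.23 and Hba-a1 -0.0933. With dye swaps alone they were Ppib -0.0367, Rpl27l1 -0.0467, Psmb4 -0.03, Rpl41 -0.0833, Calca -0.0333, Atp5f1c -0.13, Umod -0.14, Vcam1 -0.01, Hbb -0.0567, Lpl 0.005, Acta2 0.10 and Tnnt2 -0.14. With equal spread they were Slc4a1 -0.0144, Acta2 0.00546 and Tnnt2 -0.00507, and with median-centring Hba-a1 -0.00667 and Tnnt2 -0.0133. Without the forward array of replicate 1 they were Atp5f1c -0.0283, Acta2 0.0533 and Tnnt2 -0.0817. Leaving out 1 replicate at a time gave Vcam1 from -0.01 to 0.23, Hbb from -0.005 to 0.0875, Slc4a1 from -0.13 to 0.20, Acta2 from -0.085 to 0.05, Tnnt2 from -0.0075 to 0.0225 and Hba-a1 from -0.0325 to 0.065. Position-centring gave Hba-a1 -0.0717 and Tnnt2 -0.09, a narrower window (51 probes) Umod -0.00833, Vcam1 -0.03, Hba-a1 -0.065 and Tnnt2 -0.08, and the 4 stretches Hbb -0.00333, Hba-a1 -0.075 and Tnnt2 -0.0817. Without the forward array of replicate 1 as well it gave Rpl27l1 -0.0633, Psmb4 -0.0467, Calca -0.02, Atp5f1c -0.0733, Umod -0.0617, Vcam1 -0.0167, Hba-a1 -0.0867 and Tnnt2 -0.16, and with equal spread Vcam1 -0.00311, Hba-a1 -0.0692 and Tnnt2 -0.11.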
